A study of Homo sapiens with 16 samples.

Results

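The ABC transporter family is a large group of human genes whose products bind and hydrolyse ATP, mostly to move lipids, bile components, drugs, haem precursors or conjugated metabolites across membranes. The members examined here were the rows of the expression table whose only gene symbol was ABC, a letter from A to G and a number, without pseudogenes and antisense transcripts. This gave 42 of the 22464 named genes measured: 12 ABCA, 8 ABCB, 10 ABCC, 3 ABCD, 1 ABCE, 3 ABCF and 5 ABCG genes. The 5 pseudogenes and 2 antisense transcripts with ABC symbols were left out, and ABCF1 was the only member with more than 1 row (7 rows, of which the brightest was kept). TAP1, TAP2 and CFTR, family genes under other symbols, are described apart from the members, and other family genes without a member row were not analysed here.

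HepG2 is an established human hepatoma line that keeps many hepatocyte functions. Cultures received PD98059, an inhibitor of the kinase MEK, or an equal volume of DMSO, its solvent, 1 h before an incubation of 8 h in DMEM lacking histidine or in complete DMEM. The 4 groups, each of 4 independent incubations and 4 arrays, were PD98059 without histidine (PD-His), PD98059 in complete medium (PD-DMEM), DMSO without histidine (DMSO-His) and DMSO in complete medium (DMSO-DMEM). The inhibitor was used at 2.5 uM per the label protocol (the unit is printed differently elsewhere in the labels) and stayed in the medium throughout. All results come from this 1 cell line at 1 dose and 1 time.

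Hepatocytes are polarised, and their canalicular pumps export bile salts, sterols, phospholipids and conjugates into bile while basolateral pumps return conjugates to blood. Other family members act inside the cell, in mitochondria, peroxisomes and lysosomes. The ABCE and ABCF proteins have no membrane domain and work on ribosomes, and in yeast the related protein Gcn20 takes part in sensing amino acid loss through the kinase Gcn2. Which of these genes respond to loss of an essential amino acid, and which to PD98059, are the questions the 4 groups allow. MEK is the kinase that activates ERK. No other MEK inhibitor was among the groups, so whether a response to PD98059 runs through MEK was not tested.

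The values are log2 expression values, so a difference of 1 is a doubling. Array medians lay between 6.20 and 6.28. Replicate 3 of PD-His stood apart: the root mean square of the members' deviations from their group means was 0.0897 on that array and 0.0183 to 0.0517 on the other 15. Of 10 hepatocyte markers 8 were measured, and all 8 lay above the median of all values in the table (6.22), with list means of 10.99 to 11.2 per array. Of the markers of other cell types, 3 of 4 for fibroblasts, 3 of 4 for macrophages, 2 of 3 for endothelium and 0 of 2 measured for leukocytes lay above that median, with list means per array of 6.50 to 6.81, 6.40 to 6.62, 6.07 to 6.28 and 4.88 to 4.99 in the same order. By mean over all arrays, 29 members lay above the table's median and 13 below it, namely ABCB4, ABCB5, ABCB11, ABCC9, ABCC12, ABCD2 and 7 ABCA genes (ABCA4, ABCA6, ABCA8, ABCA9, ABCA10, ABCA12 and ABCA13). Signal over background was not checked, so whether those 13 were detected is unknown.

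ABCG5 and ABCG8 encode the subunits of a sterol exporter and stand head to head on chromosome 2, so their RefSeq promoter windows share letters. Promoters were matched for 34 of the 42 members (51 start sites) and are credited to RefSeq, build GRCh38.p14. The 250 bases before the start sites are shown for this pair and for ABCB6, ABCB1 and ABCD3, which were chosen after their values were seen and are described below, 5′ to 3′ on the gene's own strand, with capitals marking any match to the motifs named after them.
ABCG8: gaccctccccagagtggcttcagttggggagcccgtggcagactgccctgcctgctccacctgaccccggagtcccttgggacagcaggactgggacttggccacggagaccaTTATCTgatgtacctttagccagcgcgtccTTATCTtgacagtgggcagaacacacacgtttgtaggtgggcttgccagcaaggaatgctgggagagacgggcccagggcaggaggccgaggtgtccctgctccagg
ABCG5: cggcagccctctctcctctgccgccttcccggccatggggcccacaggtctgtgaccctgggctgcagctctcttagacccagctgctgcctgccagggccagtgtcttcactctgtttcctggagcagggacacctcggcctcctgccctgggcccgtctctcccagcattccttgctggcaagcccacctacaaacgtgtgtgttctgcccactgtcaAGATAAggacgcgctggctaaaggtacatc
ABCB6: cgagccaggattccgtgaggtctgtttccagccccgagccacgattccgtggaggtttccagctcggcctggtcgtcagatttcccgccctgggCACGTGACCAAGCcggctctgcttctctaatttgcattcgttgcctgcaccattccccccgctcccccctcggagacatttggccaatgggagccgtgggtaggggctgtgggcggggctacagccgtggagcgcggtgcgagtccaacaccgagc
ABCB1: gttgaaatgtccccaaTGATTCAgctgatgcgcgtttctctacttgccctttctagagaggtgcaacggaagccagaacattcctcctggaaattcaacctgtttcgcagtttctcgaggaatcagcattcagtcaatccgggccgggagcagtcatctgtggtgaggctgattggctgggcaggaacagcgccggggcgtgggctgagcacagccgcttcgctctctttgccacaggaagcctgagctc
ABCD3: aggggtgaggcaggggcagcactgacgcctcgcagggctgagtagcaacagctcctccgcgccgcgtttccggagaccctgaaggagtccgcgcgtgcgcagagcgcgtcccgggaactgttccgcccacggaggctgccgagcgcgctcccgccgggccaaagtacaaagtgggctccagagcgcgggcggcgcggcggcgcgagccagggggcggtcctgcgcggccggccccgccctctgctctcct

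These windows are chr2:43838721-43838970 (plus strand) for ABCG8, chr2:43838840-43839089 (minus strand) for ABCG5, chr2:219218959-219219208 (minus strand) for ABCB6, chr7:87600885-87601134 (minus strand) for the downstream start site of ABCB1 and chr1:94418139-94418388 (plus strand) for ABCD3. The start sites of ABCG5 and ABCG8 lie 132 bases apart, and 231 bases are common to their full RefSeq windows, which run on past the start sites. The motifs searched on both strands were the GATA box (AGATAA), the C/EBP-ATF composite site (TGATGNAA), the AP-1 site (TGANTCA), the ETS site (CCGGAAGT), the antioxidant response element (TGACNNNGC), the E-box (CACGTG) and the LXR direct repeat, a pair of AGGTCA letters with 4 bases between them. A GATA box stands between the ABCG5 and ABCG8 start sites and is seen in both windows, and the ABCG8 window holds another one at the ABCG5 start site. GATA boxes are found in 9.17% of the 35116 human promoter windows of this length. In the ABCB6 window an E-box (6.34% of all windows) overlaps an antioxidant response element (10.9%), and the ABCB1 window holds an AP-1 site (6.57%); the window of its upstream start site, not shown, holds a GATA box. No motif of the list is found in the ABCD3 window. Of the 51 member windows, 5 held the GATA box, 5 the AP-1 site, 9 the antioxidant response element and 9 the E-box. These belong to 5, 5, 9 and 8 of the 34 members in the same order, since overlapping windows of ABCG2 share an E-box. The C/EBP-ATF composite site was found for 1 member, ABCA13 (3.14% of all windows), the ETS site for 1, ABCB9 (3.42%), and the LXR repeat for 0 (0.0142%). These are letter matches in a short window and were not tested as sites.

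Histidine depletion with DMSO changed 14 of the 42 members, 7 higher and 7 lower (33.3% of members, against 33.3% of all 22464 genes, 14.8% higher and 18.4% lower). Among genes above the table's median, 41.4% of the 29 members and 43.7% of all genes were called. ABCD3, a peroxisomal transporter, fell the furthest, by 0.57 on the log2 scale, and ABCB6, a porphyrin transporter, fell by 0.32. ABCB1, the drug efflux pump P-glycoprotein, had the highest fold change at 0.33. Calls were made with limma at an adjusted p under 0.05 (Benjamini-Hochberg over all genes), and ± precedes a standard error. The arrays of DMSO-His and DMSO-DMEM did not overlap for 22 members, against 41.4% of all genes. The median log2 fold change was 0.030 over the members and 0.026 over all genes.

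With PD98059 present, depletion again changed 14 members, 5 higher and 9 lower (33.3%, against 27.4% of all genes, 12% higher and 15.3% lower). ABCD3 again had the lowest fold change, at -0.54, and ABCA5 had the highest, at 0.37. Above the table's median 44.8% of members and 37.2% of all genes were called. The median was -0.00013 over the members and 0.0032 over all genes, and 13 members did not overlap between PD-His and PD-DMEM, against 25.1% of all genes. Using only the arrays of these 2 groups in the fit gave 9 calls, all among the 14. The share of all genes called in that fit was not computed.

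PD98059 in complete medium changed 12 members, 7 higher and 5 lower (28.6%, against 14.3% of all genes, 7.59% higher and 6.74% lower). Above the table's median 41.4% of members and 19.4% of all genes were called. ABCG8 had the highest fold change at 0.46, and ABCB1 the lowest at -0.21. The arrays of PD-DMEM and DMSO-DMEM did not overlap for 17 members, against 21.8% of all genes, and the median was 0.028 over the members and 0.014 over all genes. The count was 7 with arrays shifted to the same median and 21 with array weights. The share of all genes called under those alternatives was not computed.

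In depleted medium PD98059 changed 14 members, 8 higher and 6 lower (33.3%, against 24.4% of all genes, 13.5% higher and 10.9% lower), with ABCA5 the highest at 0.49 and ABCB1 the lowest at -0.38. Above the table's median 48.3% of members and 32.6% of all genes were called. The median was -0.0051 over the members and -0.0063 over all genes, and 13 members did not overlap between PD-His and DMSO-His, against 23.3% of all genes. No member changed by 1.5-fold or more in any of the 4 comparisons, against 1.89%, 0.966%, 0.276% and 0.806% of all genes that were called at that size, in the order given above. Across the 4 comparisons 20 members were called at least once. These were 18 of the 29 above the table's median and 2 of the 13 below it. The remaining 22 were called in none, with fold changes between -0.07 and 0.09. The share of all genes called at least once was not computed, so this count is not read as a trait of the family.

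**Figure D1:**
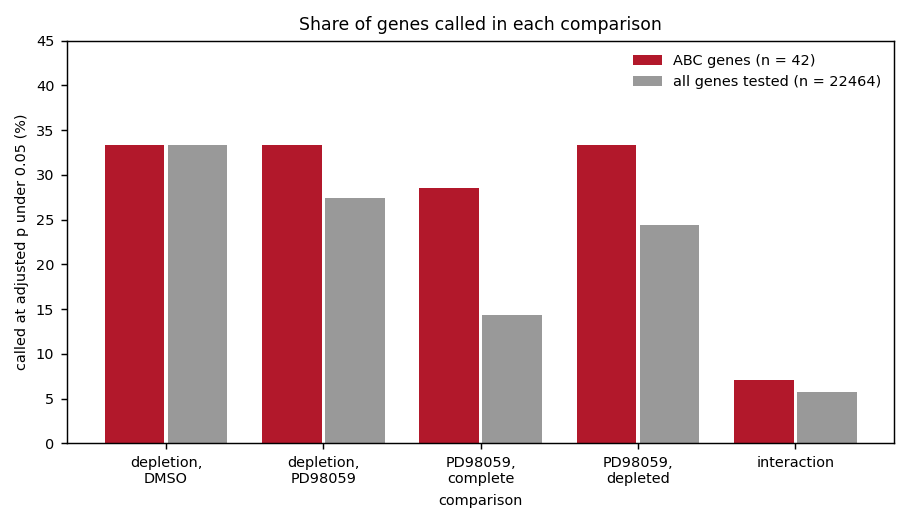
Share of genes called at an adjusted p under 0.05 (%, vertical axis) in each of the 4 comparisons and in their interaction (horizontal axis), for the 42 ABC genes (red bars) and all 22464 genes tested (grey bars). The shares were equal for depletion with DMSO (33.3% each), and 28.6% of ABC genes against 14.3% of all genes were called for PD98059 in complete medium.

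ABCA1, ABCA5, ABCB1, ABCD3, ABCF3 and ABCG8 were called in all 4 comparisons. The share of all genes called in all 4 was not computed, so this list is not read as a trait of the family. ABCA1, ABCD3, ABCF3 and ABCG8 fell with depletion under either vehicle or inhibitor and rose with PD98059 in either medium. ABCB1 did the reverse, and ABCA5 rose in all 4. Each depletion comparison shares a group of arrays with each PD98059 comparison, so these signs are not independent of each other.

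**Figure D2:**
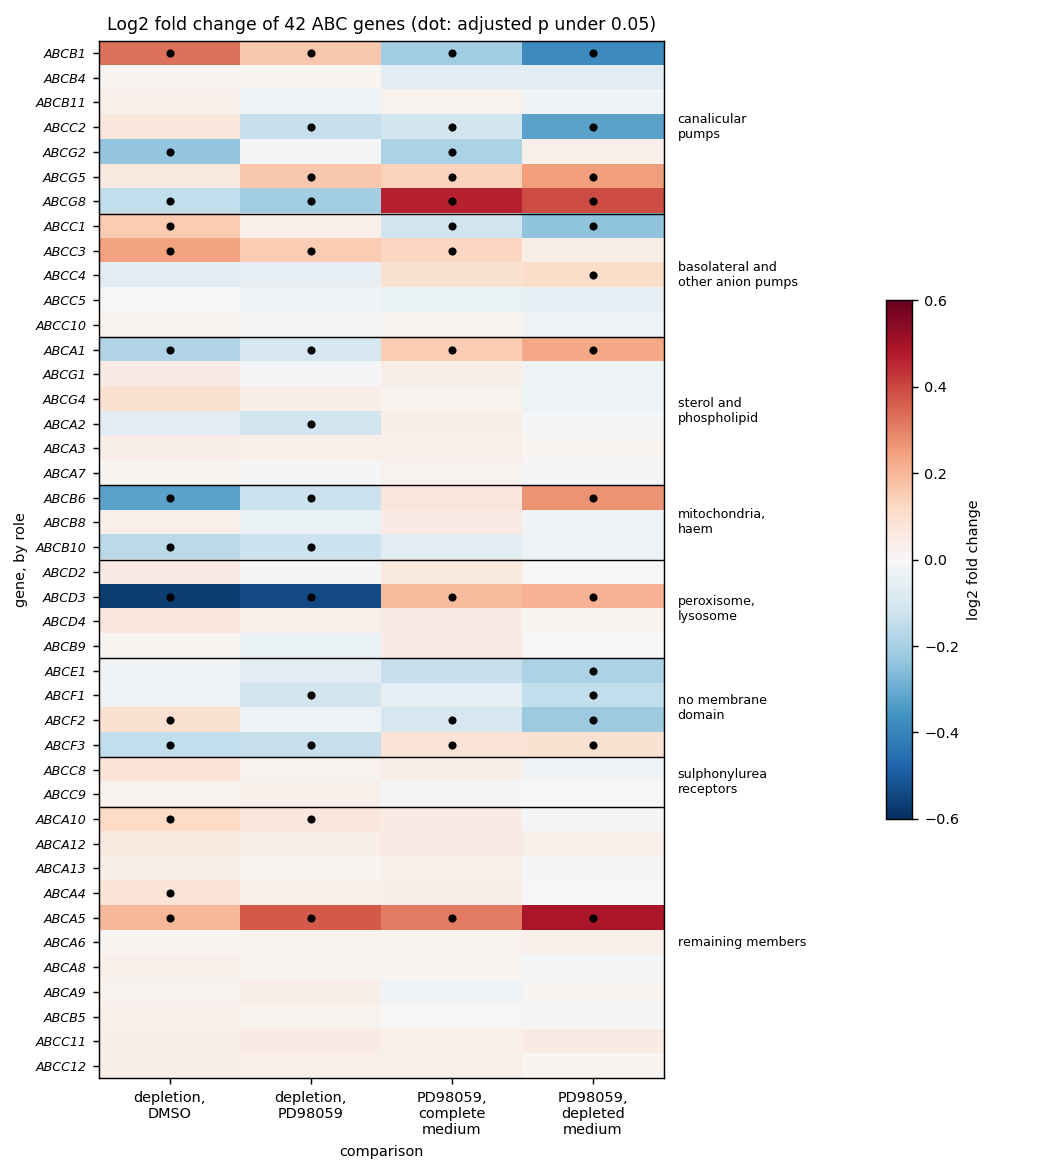
Log2 fold change (colour) of each of the 42 ABC genes, grouped by role from top to bottom, in the 4 comparisons (columns), with a dot where the adjusted p was under 0.05. ABCD3 is the darkest blue in both depletion columns (-0.57 and -0.54), and ABCG8 and ABCA5 are the darkest red in the PD98059 columns (up to 0.46 and 0.49).

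Among the 7 canalicular pumps, PD98059 raised both subunits of the sterol exporter and lowered ABCB1 and ABCC2 in either medium. It lowered ABCG2 in complete medium. The pumps called were 5 of 7 in complete medium, against 14.3% of all genes and 19.4% above the table's median. In depleted medium they were 4 of 7, against 24.4% of all genes and 32.6% above the table's median. ABCG8 had log2 values of 9.13, 9.23, 9.11 and 9.17 on the PD-DMEM arrays, against 8.72, 8.64, 8.75 and 8.69 on the DMSO-DMEM arrays. It had 8.96, 8.92, 8.95 and 8.96 on the PD-His arrays, against 8.54, 8.58, 8.51 and 8.59 on the DMSO-His arrays. Every PD98059 array lay above every DMSO array in either medium. PD98059 raised ABCG8 by 0.46 ± 0.0307 in complete medium (1.37-fold, adjusted p = 3.87e-08) and by 0.39 ± 0.0307 in depleted medium (adjusted p = 7.68e-08). Depletion lowered it, by 0.15 with DMSO (adjusted p = 0.00126) and by 0.21 with PD98059 (adjusted p = 4.92e-05).

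ABCG5, the partner subunit, rose with PD98059 as well. Its log2 values were 8.25, 8.35, 8.34 and 8.35 on the PD-His arrays and 8.14, 8.22, 8.15 and 8.12 on the PD-DMEM arrays. The DMSO-His arrays had 8.07, 8.14, 7.99 and 8.09, and the DMSO-DMEM arrays 8.05, 7.92, 8.05 and 8.04. The PD-His arrays lay above all others. PD98059 raised ABCG5 by 0.25 ± 0.0385 in depleted medium (adjusted p = 0.000113) and by 0.14 ± 0.0385 in complete medium (adjusted p = 0.0190). Depletion raised it by 0.16 with PD98059 (adjusted p = 0.00355), where ABCG8 fell, and with DMSO it was at 0.06 (adjusted p = 0.281). The call in complete medium was lost without replicate 2 of PD-DMEM or of DMSO-DMEM, or with arrays shifted to the same median (0.11 to 0.15 over all alternatives, highest adjusted p = 0.0704).

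ABCB1 exports many lipophilic drugs. It had 7.33, 7.34, 7.18 and 7.24 on the PD-His arrays, against 7.72, 7.70, 7.61 and 7.61 on the DMSO-His arrays. In complete medium it had 7.20, 7.18, 7.04 and 7.05 on the PD-DMEM arrays, against 7.39, 7.25, 7.32 and 7.33 on the DMSO-DMEM arrays. The DMSO-His arrays were the highest of the 4 groups and overlapped with none. Depletion with DMSO raised ABCB1 by 0.33 ± 0.0472 (1.26-fold, adjusted p = 2.72e-05), and PD98059 lowered it in depleted medium by 0.38 ± 0.0472 (adjusted p = 1.11e-05) and in complete medium by 0.21 (adjusted p = 0.0065). With PD98059 depletion raised it by 0.16 (adjusted p = 0.0201), with overlapping arrays. That call was lost in 7 of 24 alternatives, among them without replicate 3 or 4 of PD-DMEM or replicate 1 or 2 of PD-His (0.13 to 0.21 over all alternatives, highest adjusted p = 0.0726).

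ABCC2 exports conjugated bilirubin and glutathione conjugates into bile. It had 11.79, 11.81, 11.67 and 11.75 on the PD-His arrays, against 11.91, 11.87, 11.90 and 11.91 on the PD-DMEM arrays. The DMSO-His arrays had 12.10, 12.08, 12.06 and 12.07, against 12.02, 12.00, 12.00 and 12.02 on the DMSO-DMEM arrays. No 2 groups overlapped. PD98059 lowered ABCC2 by 0.32 ± 0.0278 in depleted medium (adjusted p = 2.76e-07) and by 0.11 ± 0.0278 in complete medium (adjusted p = 0.0123). Depletion lowered it with PD98059, by 0.14 (adjusted p = 0.000928), and with DMSO it was at 0.07 (adjusted p = 0.0743), which 5 alternatives called, among them another quantile normalization at 0.11 (adjusted p = 0.000488). The complete-medium call was lost with arrays shifted to the same median (adjusted p = 0.0578).

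ABCG2, another drug and urate exporter, was highest in the DMSO-DMEM group. Its log2 values were 8.83, 8.89, 8.64 and 8.77 on the PD-His arrays, 8.86, 8.82, 8.73 and 8.75 on the PD-DMEM arrays and 8.74, 8.80, 8.71 and 8.75 on the DMSO-His arrays, against 9.02, 8.92, 8.95 and 9.02 on the DMSO-DMEM arrays. The first 3 groups overlapped with each other and lay below every DMSO-DMEM array. Depletion with DMSO lowered it by 0.23 ± 0.0469 (adjusted p = 0.00105) and PD98059 in complete medium by 0.19 ± 0.0469 (adjusted p = 0.0106). With the other treatment present, depletion gave -0.01 (adjusted p = 0.959) and PD98059 gave 0.03 (adjusted p = 0.736).

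ABCB4, which moves phosphatidylcholine into bile, and ABCB11, the bile salt export pump, were not called in any comparison. ABCB4 had 5.97, 5.93, 5.95 and 5.96 on the PD-His arrays and 5.99, 5.94, 5.89 and 5.94 on the PD-DMEM arrays, against 6.0, 6.01, 6.05 and 6.04 on the DMSO-His arrays and 6.01, 5.97, 6.04 and 6.04 on the DMSO-DMEM arrays. All of these lie below the table's median. It was at -0.07 with PD98059 in either medium (95% interval -0.12 to -0.02 for each, adjusted p = 0.0529 in depleted and 0.0818 in complete medium). ABCB11 had 4.50, 4.51, 4.58 and 4.54 on the PD-His arrays and 4.52, 4.56, 4.55 and 4.56 on the PD-DMEM arrays, against 4.54, 4.56, 4.56 and 4.55 on the DMSO-His arrays and 4.49, 4.53, 4.54 and 4.53 on the DMSO-DMEM arrays. Its 4 fold changes lay between -0.02 and 0.03.

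**Figure D3:**
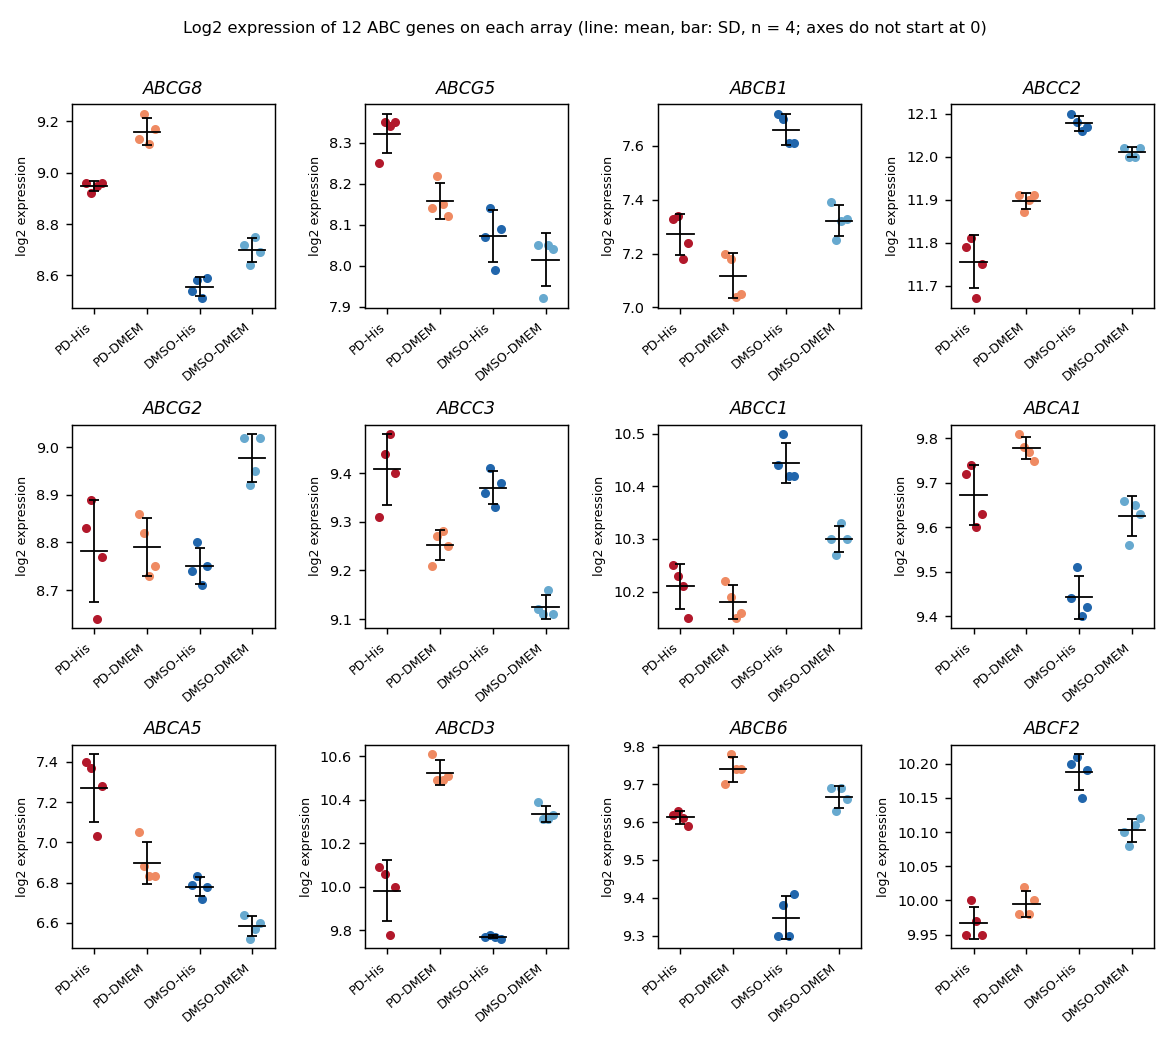
Log2 expression (vertical axis, not starting at 0) of 12 ABC genes on each of the 16 arrays, by group (horizontal axis: PD-His, PD-DMEM, DMSO-His, DMSO-DMEM). Points are arrays, the horizontal line is the group mean and the bar is 1 SD (n = 4). The PD98059 groups lie above both DMSO groups for ABCG8, and the histidine-depleted groups lie below both complete-medium groups for ABCD3.

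Of the 5 basolateral and other plasma membrane organic anion pumps measured, ABCC1 and ABCC3 rose with depletion under DMSO and 3 were not called, a share near the 33.3% of all genes and the 43.7% above the table's median. ABCC3, a basolateral exporter of glucuronides and bile salts, had 9.36, 9.41, 9.33 and 9.38 on the DMSO-His arrays, against 9.12, 9.11, 9.16 and 9.11 on the DMSO-DMEM arrays. It had 9.31, 9.44, 9.48 and 9.40 on the PD-His arrays, against 9.21, 9.27, 9.28 and 9.25 on the PD-DMEM arrays. Depletion raised it without overlap, by 0.24 ± 0.0329 with DMSO (adjusted p = 1.66e-05) and by 0.15 ± 0.0329 with PD98059 (adjusted p = 0.00166). PD98059 raised it by 0.13 in complete medium (adjusted p = 0.0155, lost without replicate 3 of PD-DMEM at an adjusted p = 0.0514), and in depleted medium it was at 0.04 (adjusted p = 0.539).

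ABCC1, an exporter of glutathione conjugates and leukotriene C4, fell with PD98059 in either medium, as ABCB1 did. The PD-His arrays had 10.25, 10.23, 10.21 and 10.15, against 10.44, 10.50, 10.42 and 10.42 on the DMSO-His arrays. The PD-DMEM arrays had 10.22, 10.19, 10.15 and 10.16, against 10.30, 10.27, 10.33 and 10.30 on the DMSO-DMEM arrays. Both PD98059 groups lay below both DMSO groups. PD98059 lowered ABCC1 by 0.24 ± 0.0280 in depleted medium (adjusted p = 7.91e-06) and by 0.12 ± 0.0280 in complete medium (adjusted p = 0.00857). Depletion with DMSO raised it by 0.15 (adjusted p = 0.000516), and with PD98059 it was at 0.03 (adjusted p = 0.581).

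ABCC4, which exports cyclic nucleotides and bile salts, had 9.01, 9.03, 8.83 and 8.93 on the PD-His arrays and 9.01, 8.99, 8.97 and 9.01 on the PD-DMEM arrays, against 8.86, 8.88, 8.81 and 8.81 on the DMSO-His arrays and 8.94, 8.83, 8.92 and 8.93 on the DMSO-DMEM arrays. Among the 4 comparisons it was called for PD98059 in depleted medium alone, at 0.11 (adjusted p = 0.0421) with overlapping arrays. That call was lost in 13 of 24 alternatives (0.08 to 0.15, highest adjusted p = 0.154). ABCC5 and ABCC10 were called in none, with fold changes between -0.05 and 0.02.

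Among the 6 genes of sterol and phospholipid transport, ABCA1 was called in every comparison and 4 were called in none. ABCA1 loads cholesterol and phospholipid onto apolipoprotein A-I. It had 9.72, 9.74, 9.60 and 9.63 on the PD-His arrays and 9.81, 9.78, 9.77 and 9.75 on the PD-DMEM arrays. The DMSO-His arrays had 9.44, 9.51, 9.40 and 9.42, and the DMSO-DMEM arrays 9.66, 9.56, 9.65 and 9.63. The DMSO-His arrays lay below all others. Depletion with DMSO lowered ABCA1 by 0.18 ± 0.0354 (adjusted p = 0.000617), and PD98059 raised it by 0.23 ± 0.0354 in depleted medium (adjusted p = 0.000111) and by 0.15 ± 0.0354 in complete medium (adjusted p = 0.00718). With PD98059 depletion lowered it by 0.10 (adjusted p = 0.038), a call lost in 9 of 24 alternatives, including without any of the PD-DMEM arrays in turn and without replicate 3 or 4 of PD-His (-0.13 to -0.08, highest adjusted p = 0.118). In complete medium the PD98059 call was lost with arrays shifted to the same median (adjusted p = 0.0615).

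ABCG1, which passes cholesterol to high-density lipoprotein, was not called, and its 4 fold changes lay between -0.03 and 0.05. It had 6.40, 6.36, 6.54 and 6.44 on the PD-His arrays and 6.37, 6.43, 6.48 and 6.51 on the PD-DMEM arrays, against 6.45, 6.43, 6.51 and 6.47 on the DMSO-His arrays and 6.37, 6.45, 6.43 and 6.40 on the DMSO-DMEM arrays, with all groups overlapping. ABCA2 was called for depletion with PD98059 at -0.12 (adjusted p = 0.0161), with overlapping arrays and lost in 5 of 24 alternatives, among them without replicate 3 or 4 of PD-DMEM or 1 or 2 of PD-His (-0.16 to -0.10, highest adjusted p = 0.101). ABCA3, ABCA7 and ABCG4 were not called.

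ABCA5, a lysosomal member of the ABCA subfamily, rose in all 4 comparisons. It had 7.40, 7.37, 7.03 and 7.28 on the PD-His arrays and 7.05, 6.88, 6.83 and 6.83 on the PD-DMEM arrays. The DMSO-His arrays had 6.79, 6.83, 6.72 and 6.78, and the DMSO-DMEM arrays 6.64, 6.52, 6.57 and 6.60. The low PD-His array is replicate 3, which overlaps with the highest PD-DMEM array. PD98059 raised ABCA5 by 0.49 ± 0.0671 in depleted medium (1.41-fold, adjusted p = 3.39e-05) and by 0.31 ± 0.0671 in complete medium (adjusted p = 0.00389). Depletion raised it by 0.37 ± 0.0671 with PD98059 (adjusted p = 0.00038) and by 0.20 ± 0.0671 with DMSO (adjusted p = 0.0328). The last call was lost in 8 of 24 alternatives, 6 of them leaving out replicate 2, 3 or 4 of DMSO-DMEM or replicate 1, 2 or 4 of DMSO-His (0.18 to 0.22, highest adjusted p = 0.0874).

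Inside the cell, ABCD3 had the lowest fold change of all members in both depletion comparisons. It encodes the peroxisomal membrane protein PMP70, which brings branched-chain and bile acid precursors into peroxisomes. It had 9.77, 9.78, 9.77 and 9.76 on the DMSO-His arrays, against 10.39, 10.31, 10.31 and 10.33 on the DMSO-DMEM arrays. With the inhibitor it had 10.09, 10.06, 9.78 and 10.00 on the PD-His arrays, against 10.61, 10.49, 10.49 and 10.51 on the PD-DMEM arrays. Every histidine-depleted array lay below every complete-medium array. Depletion lowered ABCD3 by 0.57 ± 0.0515 with DMSO (1.48-fold, adjusted p = 2.13e-07) and by 0.54 ± 0.0515 with PD98059 (1.46-fold, adjusted p = 5.43e-07). PD98059 raised it by 0.21 in depleted medium (adjusted p = 0.00551), where PD-His replicate 3 reached down to the DMSO-His arrays, and by 0.19 in complete medium (adjusted p = 0.0201). The depleted-medium value was at most 0.28 and at least 0.18 over the alternatives, while the complete-medium call was lost in 5 of 24, among them without replicate 1 of PD-DMEM or replicate 2, 3 or 4 of DMSO-DMEM (highest adjusted p = 0.0973). The other members of the peroxisome and lysosome group, ABCD2, ABCD4 and ABCB9, were not called.

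Of 6 measured peroxisome partners from a separate list, 5 fell and 1 rose with depletion under DMSO, with a median of -0.22 against 0.03 for all genes, of which 33.3% were called (43.7% above the table's median). EHHADH and HSD17B4, enzymes of peroxisomal beta-oxidation, fell by 0.58 (adjusted p = 5.01e-08) and 0.28 (adjusted p = 1.03e-06), and PEX3, a membrane assembly factor, fell by 0.41 (adjusted p = 1.15e-06). PEX5, an import receptor, rose by 0.10 (adjusted p = 0.021). With PD98059 present depletion lowered 3 of the 6, against 27.4% of all genes called, and the others missed the threshold. EHHADH was among those that missed it, at -0.07 (adjusted p = 0.382), and its interaction was called at 0.51 (adjusted p = 0.000169), against 0.02 (adjusted p = 0.916) for ABCD3. In depleted medium PD98059 raised 4 of the 6 and 2 were not called, with EHHADH at 0.96 (adjusted p = 2.56e-10). In complete medium 2 rose and 4 were not called. Of all genes 24.4% were called for PD98059 in depleted and 14.3% in complete medium. Above the table's median the shares were 32.6% and 19.4%. PPARA, the nuclear receptor for fatty acids, fell by 0.34 with depletion under DMSO (adjusted p = 9.17e-09) and by 0.28 with PD98059 (adjusted p = 1.96e-07). PD98059 raised PPARA by 0.16 in complete medium (adjusted p = 0.000133) and by 0.23 in depleted medium (adjusted p = 1.73e-06). Unlike that of EHHADH, the interaction of PPARA was not called, at 0.07 (adjusted p = 0.338).

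ABCB6 transports porphyrins, the precursors of haem. It had 9.30, 9.38, 9.30 and 9.41 on the DMSO-His arrays, against 9.69, 9.63, 9.69 and 9.66 on the DMSO-DMEM arrays. It had 9.62, 9.63, 9.61 and 9.59 on the PD-His arrays, against 9.70, 9.78, 9.74 and 9.74 on the PD-DMEM arrays. The DMSO-His arrays were the lowest and overlapped with no other group. Depletion lowered ABCB6 by 0.32 ± 0.0291 with DMSO (1.25-fold, adjusted p = 1.94e-07) and by 0.13 ± 0.0291 with PD98059 (adjusted p = 0.00317). PD98059 raised it by 0.27 ± 0.0291 in depleted medium (adjusted p = 3.12e-06), and in complete medium it was at 0.07 (adjusted p = 0.132), called at 0.08 after another quantile normalization (adjusted p = 0.0333).

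ABCB10, a mitochondrial inner membrane transporter needed for haem synthesis, had 9.50, 9.60, 9.49 and 9.54 on the DMSO-His arrays, against 9.69, 9.66, 9.72 and 9.71 on the DMSO-DMEM arrays. It fell without overlap by 0.16 ± 0.0372 (adjusted p = 0.00268). With PD98059 it had 9.57, 9.57, 9.40 and 9.47 on the PD-His arrays, against 9.66, 9.64, 9.60 and 9.61 on the PD-DMEM arrays, and fell by 0.13 (adjusted p = 0.0159). This call was lost with arrays shifted to the same median or with only these groups in the fit (highest adjusted p = 0.068). ABCB8, another mitochondrial member, was not called. Of 8 measured iron-sulphur cluster and haem partners, 3 fell, 1 rose and 4 were not called with depletion under DMSO, near the 43.7% of genes above the table's median that were called. NFS1, the cysteine desulphurase, fell by 0.44 (adjusted p = 9.96e-09), ALAS1, the first enzyme of haem synthesis, fell by 0.27 (adjusted p = 4.96e-06), and SLC25A38, a mitochondrial glycine carrier, rose by 0.44 (adjusted p = 2.04e-08). With PD98059 in depleted medium 4 of these genes rose and 4 were not called, against 24.4% of all genes called (32.6% above the table's median).

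Of the 4 genes without a membrane domain, 2 were called in each of the 2 depletion comparisons and for PD98059 in complete medium. Of all genes, 33.3% were called for depletion with DMSO, 27.4% for depletion with PD98059 and 14.3% for PD98059 in complete medium. Above the table's median, where these 4 genes lie, the shares were 43.7%, 37.2% and 19.4% in the same order. For PD98059 in depleted medium all 4 were called, 3 lower and 1 higher, against 24.4% of all genes and 32.6% above the table's median. Their median log2 fold change there was -0.17, against -0.01 for all genes. ABCE1 splits ribosomes after termination. It had 10.35, 10.34, 10.09 and 10.29 on the PD-His arrays, against 10.50, 10.45, 10.44 and 10.47 on the DMSO-His arrays, with replicate 3 of PD-His the lowest. PD98059 lowered it by 0.19 ± 0.0474 in depleted medium (adjusted p = 0.0059; -0.13 to -0.22 over all alternatives). In complete medium it had 10.43, 10.31, 10.32 and 10.30 on the PD-DMEM arrays, against 10.49, 10.48, 10.46 and 10.48 on the DMSO-DMEM arrays, a difference of -0.14 (adjusted p = 0.0704). That difference was called under 7 alternatives (-0.13 to -0.17), among them the replicate block (adjusted p = 0.0359), only these groups in the fit (0.0171), array weights (0.000229) and the fit without replicate 3 of PD-His (0.00281), which enters this comparison only through the spread. Depletion gave -0.02 with DMSO (95% interval -0.12 to 0.09) and -0.07 with PD98059 (95% interval -0.17 to 0.03).

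ABCF2 had the smallest adjusted p of these 4 genes for PD98059 in depleted medium. Its log2 values were 9.95, 10.00, 9.97 and 9.95 on the PD-His arrays, against 10.20, 10.21, 10.15 and 10.19 on the DMSO-His arrays. On the PD-DMEM arrays they were 9.98, 10.02, 9.98 and 10.00, against 10.10, 10.08, 10.11 and 10.12 on the DMSO-DMEM arrays. Neither pair of groups overlapped. PD98059 lowered ABCF2 by 0.22 ± 0.0222 in depleted medium (adjusted p = 1.47e-06) and by 0.10 ± 0.0222 in complete medium (adjusted p = 0.00362), and depletion with DMSO raised it by 0.09 (adjusted p = 0.006).

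ABCF1, which binds the initiation factor eIF2, had 10.59, 10.56, 10.51 and 10.50 on the PD-His arrays, against 10.70, 10.71, 10.67 and 10.68 on the DMSO-His arrays. It had 10.66, 10.66, 10.62 and 10.66 on the PD-DMEM arrays, against 10.71, 10.71, 10.71 and 10.73 on the DMSO-DMEM arrays, a difference of -0.06 that was not called (adjusted p = 0.113). In depleted medium the groups did not overlap either, and PD98059 lowered ABCF1 by 0.15 (adjusted p = 0.000144). Depletion with PD98059 lowered it by 0.11 (adjusted p = 0.00146), and with DMSO it was at -0.02 (adjusted p = 0.464).

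ABCF3 went the other way under the inhibitor. Its arrays had 8.89, 8.88, 8.90 and 8.86 in PD-His, 8.99, 9.04, 9.02 and 9.03 in PD-DMEM, 8.77, 8.80, 8.79 and 8.80 in DMSO-His and 8.93, 8.92, 8.95 and 8.96 in DMSO-DMEM. Depletion lowered ABCF3 by 0.15 with DMSO (adjusted p = 2.2e-05) and by 0.14 with PD98059 (adjusted p = 7.69e-05). PD98059 raised it by 0.09 in depleted medium (adjusted p = 0.00303) and by 0.08 in complete medium (adjusted p = 0.0158), the last lost without replicate 2 of PD-DMEM or with arrays shifted to the same median (highest adjusted p = 0.0626).

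Of 8 measured ribosome recycling and GCN2 partners, 4 fell, 2 rose and 2 were not called with depletion under DMSO. Of all genes 33.3% were called there, and 43.7% above the table's median, where these partners lie. GCN1, the activator that binds GCN2, fell by 0.24 (adjusted p = 4.05e-06), EIF2AK4, which encodes GCN2 itself, fell by 0.40 (adjusted p = 6.4e-06), and EIF3J, an initiation factor subunit, rose by 0.27 (adjusted p = 9.6e-06). With PD98059 in depleted medium 3 of the 8 partners fell, 1 rose and the others missed the threshold. In that comparison 24.4% of all genes were called, and 32.6% above the table's median. ETF1, the release factor that acts before ABCE1, fell by 0.24 (adjusted p = 4.33e-05).

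The sulphonylurea receptors ABCC8 and ABCC9 were not called in any comparison. Among the remaining ABCA genes, ABCA10 was at 0.12 for depletion with DMSO (adjusted p = 0.000138) and 0.07 with PD98059 (adjusted p = 0.0205), with log2 values between 3.97 and 4.12 on all 16 arrays, far below the table's median. ABCA4 was at 0.08 for depletion with DMSO (adjusted p = 0.032), lost in 7 of 23 alternatives, 6 of them leaving out replicate 1, 3 or 4 of DMSO-DMEM or replicate 2, 3 or 4 of DMSO-His (highest adjusted p = 0.0972). The call of ABCA10 with PD98059 was lost in 5 of 23, including without replicate 3 of PD-DMEM or replicate 4 of PD-His (highest adjusted p = 0.134). ABCA6, ABCA8, ABCA9, ABCA12, ABCA13, ABCB5, ABCC11 and ABCC12 were not called in any comparison.

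The interaction, the depletion response with PD98059 minus that with DMSO, was called for 3 members, 1 positive and 2 negative (7.14%, against 5.74% of all genes, 2.91% positive and 2.83% negative, and 0.2% at 1.5-fold or more). Above the table's median the shares were 10.3% of members and 7.85% of all genes. ABCB6 was at 0.20 ± 0.0412 (adjusted p = 0.00902), since depletion lowered it by 0.13 with PD98059 and by 0.32 with DMSO. ABCC2 was at -0.21 ± 0.0394 (adjusted p = 0.00441), with depletion responses of -0.14 with PD98059 and 0.07 with DMSO. ABCF2 was at -0.11 ± 0.0315 (adjusted p = 0.0433), with responses of -0.03 and 0.09 in the same order. The ABCF2 call was lost in 14 of 23 alternatives, the replicate block and the leaving out of any DMSO-DMEM array among them (highest adjusted p = 0.158), and that of ABCC2 with arrays shifted to the same median (adjusted p = 0.0513). Without replicate 3 of PD-His 5 members were called, with ABCG2 at 0.27 (adjusted p = 0.00381) and ABCA5 at 0.26 (adjusted p = 0.0221), against 0.22 (adjusted p = 0.0661) and 0.18 (adjusted p = 0.376) with all arrays. With a replicate block ABCB1 was called at -0.18 (adjusted p = 0.0473, against 0.152 without the block) and ABCG2 at 0.22 (adjusted p = 0.0327). For ABCD3 the interaction was 0.02, with a 95% interval of -0.13 to 0.18, and for ABCG8 it was -0.07, with an interval of -0.16 to 0.03.

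**Figure D4:**
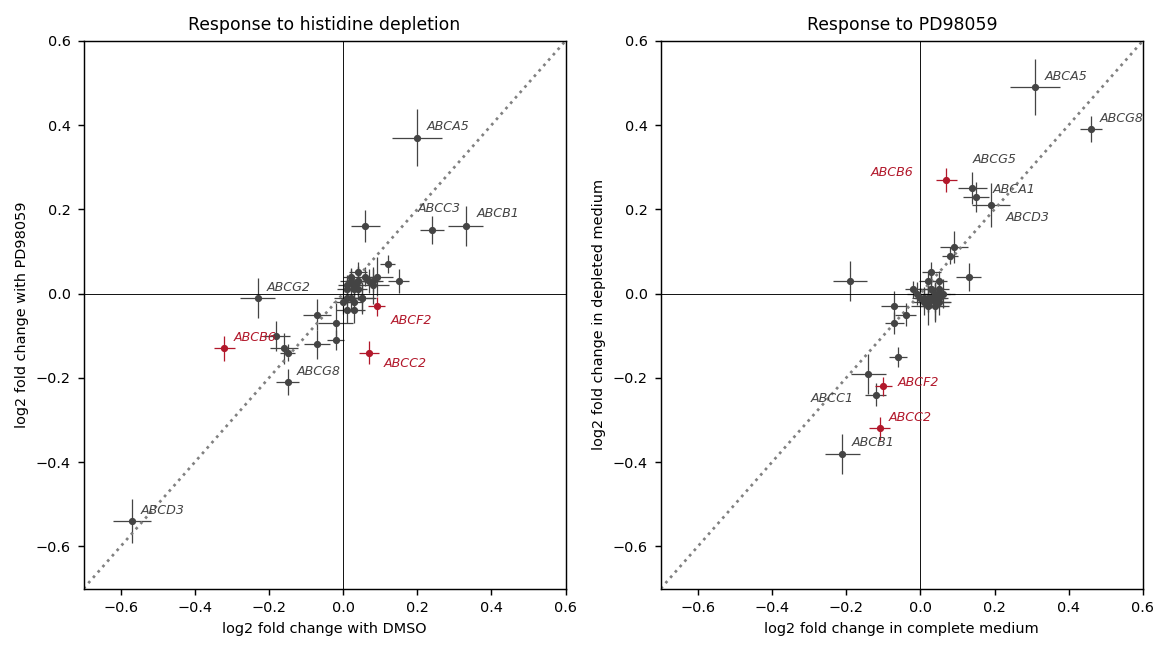
Log2 fold changes of the 42 ABC genes with standard errors (bars). Left, the response to histidine depletion with DMSO (horizontal axis) and with PD98059 (vertical axis); right, the response to PD98059 in complete medium (horizontal axis) and in depleted medium (vertical axis). The dotted line marks equal responses, red marks the 3 genes with a called interaction (ABCB6, ABCC2 and ABCF2), and ABCD3 lies close to the line at -0.57 and -0.54.

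Genes that act with the family were described from lists, whose counts stand beside 33.3% of all genes called for depletion with DMSO, 27.4% with PD98059, and 14.3% for PD98059 in complete and 24.4% in depleted medium. Of 10 measured nuclear receptors and other regulators, 4 rose, 2 fell and 4 were not called with depletion under DMSO, and AHR, the receptor for dioxin-like ligands, rose by 0.79 (adjusted p = 5.4e-10). With PD98059 present 4 rose, 3 fell and 3 were not called. PD98059 gave 2 higher, 3 lower and 5 not called in complete medium, where NR0B2, which represses genes of bile acid synthesis, fell by 0.94 (adjusted p = 9.34e-08), and 2 higher, 4 lower and 4 not called in depleted medium. RXRA, the partner of LXR and FXR, rose with PD98059 by 0.25 in depleted medium (adjusted p = 2.9e-05) and by 0.22 in complete medium (adjusted p = 0.000211). Depletion lowered RXRA by 0.18 with DMSO (adjusted p = 0.000442) and by 0.15 with PD98059 (adjusted p = 0.00248). Of 4 measured LXR targets other than ABC genes, 2 fell with depletion under DMSO and 3 with PD98059. PD98059 raised LPCAT3 and PLTP in complete medium and LPCAT3 and SCD in depleted medium. SCD, a fatty acid desaturase, fell by 0.31 (adjusted p = 5.18e-08) and LPCAT3, a phospholipid remodelling enzyme, by 0.27 (adjusted p = 4.36e-07) with depletion under DMSO. PLTP, a phospholipid transfer protein, was at 0.01 (adjusted p = 0.863) and LPL, a lipase, at 0.07 (adjusted p = 0.141) there, and NR1H3, which encodes an LXR, was not called (adjusted p = 0.915).

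Of 9 measured hepatic solute carriers, 3 rose, 1 fell and 5 were not called with PD98059 in complete medium, with the same counts in depleted medium. SLC51B, a subunit of the basolateral bile acid exporter, fell by 0.79 (adjusted p = 1.93e-10) and SLCO2B1, an organic anion uptake carrier, rose by 0.50 (adjusted p = 3.33e-08) in complete medium. Depletion raised SLC51B by 0.70 with DMSO (adjusted p = 1.17e-10) and by 0.82 with PD98059 (adjusted p = 3.75e-11). Outside the 42 members, TAP1, a subunit of the peptide transporter of antigen presentation, fell with depletion by 0.25 with DMSO (adjusted p = 0.000171) and by 0.23 with PD98059 (adjusted p = 0.00047). It rose by 0.14 with PD98059 in depleted medium (adjusted p = 0.0161), while CFTR, a chloride channel, was not called in any comparison. TAP2, the other TAP subunit, rose by 0.07 with depletion under DMSO (adjusted p = 0.0435) and fell by 0.08 with PD98059 in either medium (adjusted p = 0.0215 in depleted and 0.0399 in complete medium). The depletion call of TAP2 was lost with arrays shifted to the same median and without each of the DMSO-His arrays in turn, among other alternatives.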

How the data were processed

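Expression was measured on 16 biotin-labelled 1-colour Affymetrix arrays made from 100 ng of RNA and 5.5 ug of cDNA each, per the labels' protocols. The values are log2 expression values as the authors deposited them. The submitters' processing notes name RMA, Partek 6.6 and genome build hg19, with no further settings. RMA normally makes array distributions alike and compresses small signals, so fold changes may be understated. No scanner files were used, and 4 arrays a group limit the precision.

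Of 70459 rows, 23780 had 1 gene symbol and 1543 had several and were left out. The brightest row per symbol gave 22464 genes. The 16 arrays entered 1 limma model (limma 3.58.1, R 4.3.3) with a mean per group, and p-values were adjusted over all genes. The model was tested on simulated data with known changes and, for each gene, the same spread on every array. That simulation could not test the effect of an array with a larger spread, such as replicate 3 of PD-His. Members, lists and tests were chosen with earlier results of these data known. Every member is accounted for. Array values are given for 15 fixed members, for the 6 highest and 6 lowest called members per comparison without overlap and above the table's median, and for members with a called interaction. From each other list up to 3 genes among those with the lowest adjusted p in a comparison are named. Some further genes of these lists are named whatever their adjusted p. Alternatives were a replicate block, fewer arrays, a variance trend, a dim-gene filter, 2 normalizations, row means, array weights, a threshold of 0.01 and leaving out each array.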

Additional observations from a re-analysis of the deposited data

Results flagged for a closer look

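Each of the 20 members named by the rule was examined in each of the 4 groups for an array that stood far from the other 3, which made 80 tests, and 5 were flagged. Chance flags about 1 in 20 such groups. ABCC2 was at 11.87 on replicate 2 of PD-DMEM, against 11.90 to 11.91 on the others. ABCD3 was at 10.61 on replicate 1 of PD-DMEM, against 10.49 to 10.51. ABCF1 was at 10.62 on replicate 3 of PD-DMEM, against 10.66 on each of the others. ABCG5 was at 8.25 on replicate 1 of PD-His, against 8.34 to 8.35, and at 7.92 on replicate 2 of DMSO-DMEM, against 8.04 to 8.05.

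The depletion response differed between PD98059 and DMSO by the interaction test of limma for ABCB6 (0.20, adjusted p = 0.00902), ABCC2 (-0.21, adjusted p = 0.00441) and ABCF2 (-0.11, adjusted p = 0.0433).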

How the results depend on the processing

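Of 57 called fold changes and interactions of members, 41 kept their direction and call under all 24 alternatives other than the stricter threshold that could be run for them, 16 lost the call under at least 1, and 0 changed sign while called. At an adjusted p under 0.01, 42 remained. The counts of called members were 14 for depletion with DMSO, 14 for depletion with PD98059, 12 for PD98059 in complete medium, 14 for PD98059 in depleted medium and 3 for the interaction. Depletion with DMSO gave 21 with array weights and 18 with only its groups in the fit. Depletion with PD98059 gave 9 with only its groups in the fit and 9 at the stricter threshold. PD98059 in complete medium gave 7 with arrays shifted to the same median, 21 with array weights and 6 at the stricter threshold. The interaction gave 1 with arrays shifted to the same median and 8 with array weights. Leaving out each array gave 12 to 19, 10 to 14, 10 to 14, 13 to 15 and 2 to 5 calls in the order above, and the highest counts for depletion with DMSO, PD98059 in complete medium and the interaction came without replicate 3 of PD-His, whose array weight was 0.133. Deviations of same-numbered arrays of different groups correlated at -0.32 to 0.51 over 24 pairs, with 9 over 0.1 and a median of 0.05, against -0.02 for other-numbered pairs, and 6 of 16 arrays matched best with their own number. Since not every pair was over 0.1, the numbers were not taken to pair the arrays, though some shared deviation is possible. With a replicate block the counts were 15, 14, 13, 14 and 4, and the block lost the interaction call of ABCF2 and, among the members with array values, gained those of ABCB1 (-0.18, adjusted p = 0.0473) and ABCG2 (0.22, adjusted p = 0.0327) and the call of ABCE1 for PD98059 in complete medium (-0.14, adjusted p = 0.0359). Changes of 0.1 to 0.2 on the log2 scale rest on 4 arrays a group and most lost calls are of that size. Shares of all genes called under the alternatives were not computed, so whether the member counts moved with those of all genes is unknown.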
